A study of Mus musculus with 48 samples.

Results

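The liver makes most of the proteins that circulate as clotting and complement factors. A set of 36 such genes was followed in the liver arrays, 20 of the coagulation and fibrinolysis system and 16 of the complement system. The genes were listed by name, and each was read from the probe set whose gene symbol equals the listed name and that had the highest mean signal over the 24 liver arrays. A probe set was found for 35 of the 36, which were 19 coagulation and 16 complement genes, and all 35 passed the filter on signal. The gene for the gamma chain of fibrinogen, Fgg, was not analysed here. The table held 28815 probe sets, of which 12802 for 11310 genes were tested.

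Male mice of the strain labelled Bl6J (C57Bl6/J in the study's methods), aged 10 to 12 weeks, entered 2 treatments. Mice under timed sleep restriction (TSR) were held awake by gentle handling between ZT0 and ZT6 (ZT0 is lights on) on 5 days, slept freely for 2 days and were restricted on 5 more days. Control mice were not disturbed. At each of ZT1, ZT7, ZT13 and ZT19 liver RNA of 3 mice per treatment was measured on microarrays, Affymetrix Mouse Gene 1.0 ST, giving 12 TSR and 12 control arrays, and 24 further arrays carry the label epididymal white adipose tissue (WAT). The model is whole liver of an inbred strain with no transgene, so that fewer cells of a type and less RNA per cell cannot be told apart.

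Coagulation is a cascade of proteases that are secreted as inactive precursors and end in thrombin, which turns fibrinogen into fibrin. Anticoagulants restrain the cascade and fibrinolysis removes the clot. Complement is a second plasma cascade, which is started by antibodies, by lectins that bind sugars on microbes or by spontaneous turnover of C3, runs through the convertases and ends in the membrane attack complex. Hepatocytes are the main source of these proteins, and many of the genes are targets of hepatocyte transcription factors such as HNF4 and C/EBP.

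Some arrays stood apart from others. On replicate 3 of TSR liver at ZT19 the median of pancreatic acinar markers was 9.26 on the log2 scale, against 5.35 to 6.68 on the other 23 liver arrays. Of the 35 genes 23 had their lowest signal of that group there and 8 their highest (median difference from the other arrays of the group, -0.16 log2). The same counts over all probe sets are not given. An earlier pass over these data had found 5 arrays that stood apart from the rest across all genes, and results are also given without them. They are replicate 3 of TSR liver at ZT1, replicate 3 of control liver at ZT7 and all 3 control arrays at ZT19. The last 3 are a whole group, so that a difference of the arrays and of the group cannot be told apart there. Hepatocyte markers were present on all arrays, with a summed signal of 81798 to 98886 in TSR and 80633 to 90281 in control liver. Of 10 markers 7 rose in TSR in the mean over time at an adjusted p under 0.05 in limma (median 0.14 log2). Of all tested probe sets 13.8% rose, and above the upper quartile of signal 35.1% changed in either direction. TSR arrays are numbered 1 to 12 and control arrays 37 to 48 in the labels, so that treatment and this numbering cannot be told apart.

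About as many of the genes changed as in the liver at large. In the mean over the 4 time points 11 of the 35 genes changed, 5 upwards and 6 downwards, where 27% of all tested probe sets passed the same threshold (13.8% upwards and 13.2% downwards), an adjusted p under 0.05 in limma. Among the 6362 probe sets above the upper quartile of signal, where all of the genes lie, the share was 35.1%. The genes that rose were F2, F12, Proc, Mbl1 and Mbl2. Those that fell were F5, Pros1, Serpind1, C8a, Hc and Masp1. Coagulation gave 6 of 19 genes and complement 5 of 16, so that both classes held genes that rose and genes that fell.

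**Figure D1:**
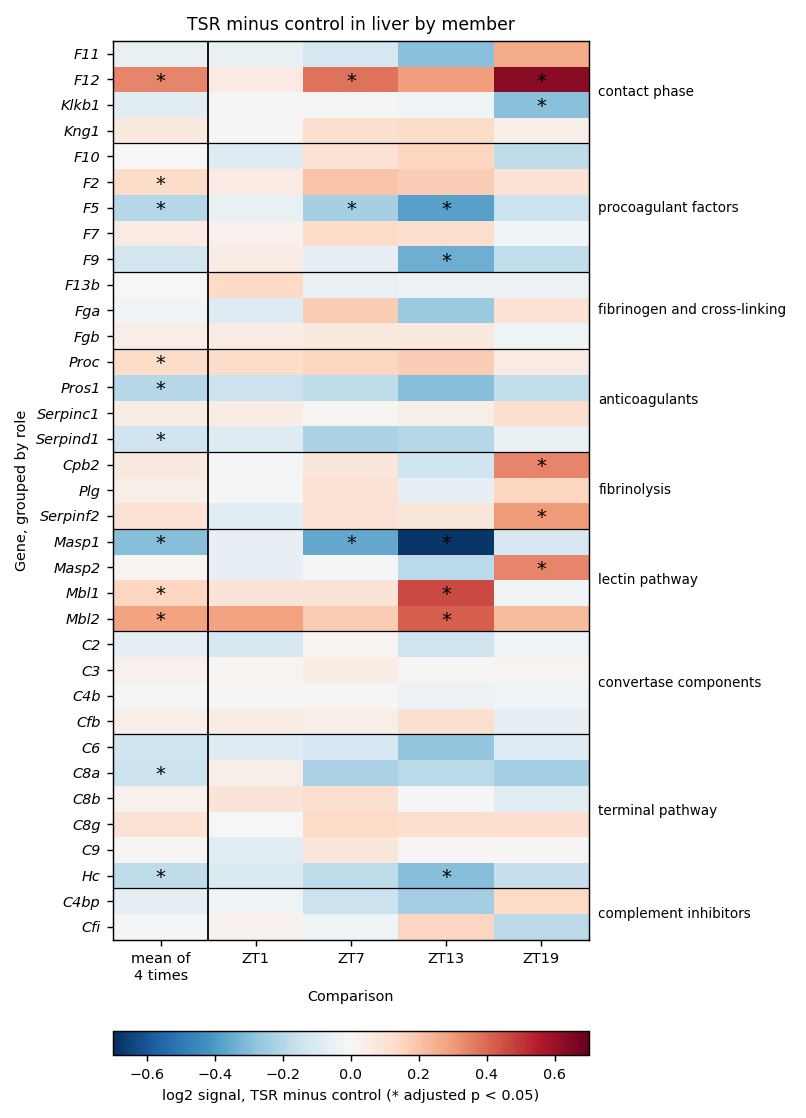
Difference in log2 signal between TSR and control liver for the 35 genes (rows, grouped by role) in the mean over 4 time points and at each ZT (columns). Red is higher and blue is lower in TSR, and an asterisk marks an adjusted p under 0.05 in limma. The deepest blue is Masp1 at ZT13 (-0.68) and the deepest red F12 at ZT19 (0.63).

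The number of genes past the threshold was different at each time. At ZT1 none of the 35 genes passed the threshold in limma, against 2.71% of all probe sets. F13b and Mbl2 had an unadjusted p under 0.05 there (19.5% of all probe sets did). Array weights gave 1 call and the methods' t-test gave 0, and the shares of all probe sets under these alternatives are not given. At ZT7 3 genes changed (background 14.8%), at ZT13 6 genes (17.8%) and at ZT19 5 genes (15.1%). All 3 TSR arrays lay above or below all 3 control arrays for 7 genes at ZT1 (all probe sets, 28.9%), for 17 at ZT7 (38.4%), for 17 at ZT13 (34.1%) and for 11 at ZT19 (41%). For 3 arrays against 3 an exact permutation test cannot give a two-sided p below 0.1, so that calls at single time points rest on the spread shared across genes and groups in limma. A difference of the TSR effect between time points was tested directly and was found for F10, Mbl1 and Masp1, 3 of 35 genes where 20.6% of all probe sets passed.

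**Figure D2:**
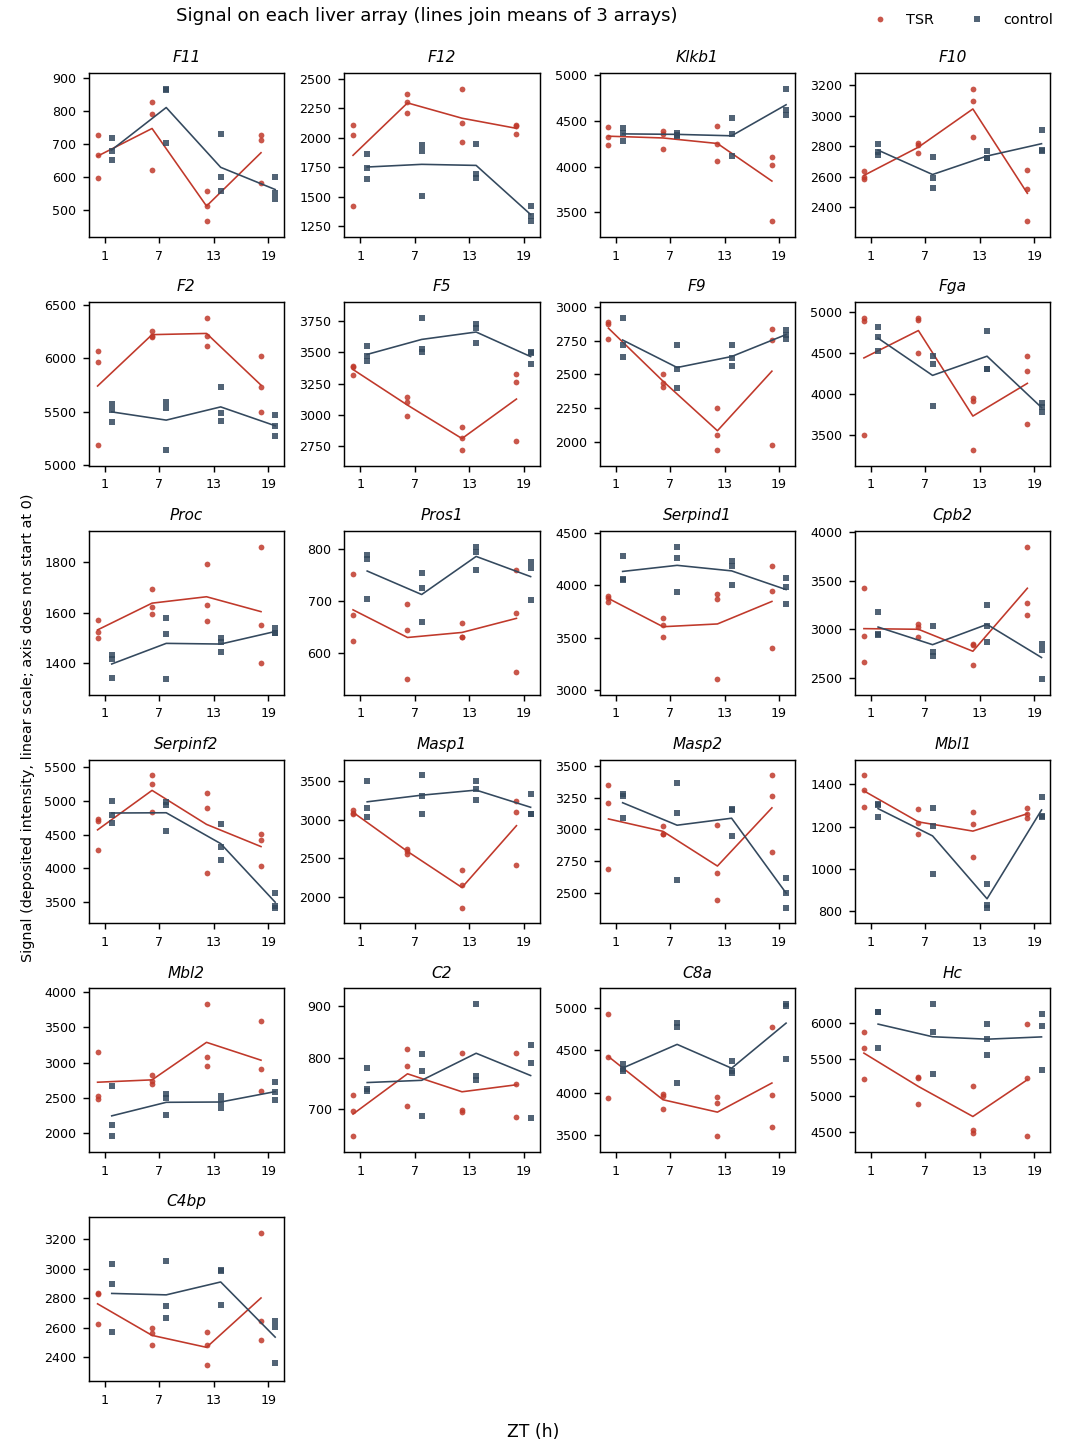
Signal (linear scale, not starting at 0) against ZT for 21 genes, with a point for each of 12 TSR arrays (red circles) and 12 control arrays (dark squares) and lines through the means of 3 arrays. Masp1 and F5 lie below control in all TSR arrays at ZT7 and ZT13, and F12 lies above control in all TSR arrays at ZT7, ZT13 and ZT19.

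The promoters of 4 genes are shown because these genes carry the changes described below, with 3 that rose and 1 that fell. They are the 250 bases before the transcription start in RefSeq on build GRCm38.p6, read 5′ to 3′ on the strand of the gene. F12, a gene that rose, is at chr13:55426805-55427054 on the minus strand. Mbl1 and Mbl2, which also rose, are at chr14:41151206-41151455 and at chr19:30232678-30232927 on the plus strand. F5, which fell, is at chr1:164151585-164151834 on the plus strand. Capitals mark AGAACA, a core motif of the glucocorticoid receptor, and AGGTCA, a core motif of REV-ERB and ROR receptors, on either strand, so that TGTTCT and TGACCT are the same letters read on the other strand.
F12: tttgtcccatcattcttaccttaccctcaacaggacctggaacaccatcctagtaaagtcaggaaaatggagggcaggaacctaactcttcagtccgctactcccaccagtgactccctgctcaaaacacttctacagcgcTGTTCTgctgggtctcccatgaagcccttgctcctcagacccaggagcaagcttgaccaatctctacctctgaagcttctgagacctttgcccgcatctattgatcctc
Mbl1: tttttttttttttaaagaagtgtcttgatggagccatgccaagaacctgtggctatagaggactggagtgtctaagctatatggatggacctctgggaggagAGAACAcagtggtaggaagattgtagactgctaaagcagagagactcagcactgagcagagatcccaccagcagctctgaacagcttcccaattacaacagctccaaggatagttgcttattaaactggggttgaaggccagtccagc
Mbl2: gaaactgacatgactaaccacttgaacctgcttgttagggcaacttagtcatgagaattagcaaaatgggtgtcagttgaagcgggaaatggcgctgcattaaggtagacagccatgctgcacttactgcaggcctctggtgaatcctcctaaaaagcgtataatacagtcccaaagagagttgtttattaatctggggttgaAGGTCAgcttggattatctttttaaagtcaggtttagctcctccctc
F5: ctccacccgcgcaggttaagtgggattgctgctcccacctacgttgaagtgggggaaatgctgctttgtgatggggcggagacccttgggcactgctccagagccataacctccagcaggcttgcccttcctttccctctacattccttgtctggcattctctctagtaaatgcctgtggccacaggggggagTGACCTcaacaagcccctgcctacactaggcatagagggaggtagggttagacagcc

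AGAACA began 109 bases before the start in F12, on the minus strand of the gene, and 148 bases before the start in Mbl1. AGGTCA began 47 bases before the start in Mbl2, and 57 before it in F5 on the minus strand of the gene. The Mbl1 and Mbl2 windows also shared the run ctggggttgaagg of 13 letters, 23 and 57 bases before the start, which 3 of the 32851 promoters in the table hold. Over the whole window, from 250 bases before to 50 after the start, a promoter was listed for 28 of the 36 genes. AGGTCA was found in 12 of the 28 (16.3% of all promoters), in 8 of 17 coagulation and 4 of 11 complement genes. AGAACA was found in 10 of the 28 (19% of all promoters). None of the 28 held the E-box CACGTG (7.15% of all promoters) or the D-box TTATGTAA (0.938%). Both strands were searched, and no match of AGGTCA overlapped a match of AGAACA. A match is a description of letters, and binding was not measured.

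In the contact phase, which starts clotting on charged surfaces and releases bradykinin, F12 rose and Klkb1 fell. F12 (factor XII) had signals of 2028, 2107 and 1420 at ZT1, 2302, 2212 and 2376 at ZT7, 2414, 2122 and 1964 at ZT13 and 2032, 2110 and 2100 at ZT19 on the TSR arrays. On the control arrays F12 had 1861, 1746 and 1650 at ZT1, 1886, 1937 and 1502 at ZT7, 1697, 1657 and 1944 at ZT13 and 1336, 1293 and 1418 at ZT19. The groups overlapped at ZT1 only, and control liver was lowest at ZT19 while TSR liver was not. The mean over time was 1.27-fold higher in TSR (0.34 ± 0.06 log2, SE, adjusted p = 0.00102 in limma), with 1.54-fold at ZT19 (0.63 ± 0.13, adjusted p = 0.00853) and 1.30-fold at ZT7 (0.38 ± 0.13, adjusted p = 0.047). F12 at ZT7 lost its call without replicate 3 of control at ZT7 (0.26, adjusted p = 0.21), and 20 of 35 alternatives lost it. The mean kept its call under all 35 and ZT19 under all 34 that could be run. All 3 control arrays at ZT19 belong to the arrays set apart, so that ZT19 could not be compared without them.

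Klkb1, which encodes plasma prekallikrein, the precursor that factor XII activates, had 4109, 4016 and 3404 on the TSR arrays at ZT19, against 4622, 4851 and 4564 on the control arrays. No TSR array reached the control range, and the lowest was replicate 3. The fall was 1.22-fold (-0.29 ± 0.07 log2, adjusted p = 0.0163 in limma), and without replicate 3 of TSR, the array with pancreatic markers, it was -0.20 with an adjusted p of 0.0583. Without replicate 2 of control, 1 of the arrays set apart, the adjusted p was 0.0678. At the other times Klkb1 differed by -0.03 to -0.01. F11, which encodes factor XI and neighbours Klkb1 on chromosome 8, had an estimate of 0.26 at ZT19 (adjusted p = 0.172), so that the neighbours had opposite signs there. Kng1, the kininogen gene, had estimates of 0.01 to 0.13, none past the threshold, and its probe set may share sequence with the near-identical copy Kng2, which had estimates of -0.04 to 0.02.

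Among the procoagulant factors, F2 rose while F5 and F9 fell. F5 encodes factor V, the cofactor with which factor Xa makes thrombin. At ZT13 it had 2901, 2722 and 2815 on the TSR arrays, against 3723, 3571 and 3690 on the control arrays, and at ZT7 2996, 3101 and 3140 in TSR, against 3774, 3528 and 3505 in control liver. At ZT1 the TSR arrays had 3382, 3387 and 3319 and the control arrays 3471, 3546 and 3432, and at ZT19 they had 3326, 3264 and 2792 in TSR and 3501, 3491 and 3405 in control liver. The TSR arrays were thus below the control arrays of the same time at all 4 times. F5 fell 1.30-fold at ZT13 (-0.38 ± 0.07 log2, adjusted p = 0.003 in limma), 1.17-fold at ZT7 (-0.23 ± 0.07, adjusted p = 0.0321) and 1.15-fold in the mean (-0.20 ± 0.03, adjusted p = 0.00052). The call at ZT7 was lost under 8 of 35 alternatives, with adjusted p values up to 0.12. Among them were leaving out replicate 1 or 3 of control or replicate 1, 2 or 3 of TSR at ZT7.

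F9, the gene of factor IX, which is deficient in haemophilia B, had 2053, 2253 and 1940 on the TSR arrays at ZT13, against 2560, 2621 and 2714 on the control arrays. The groups did not overlap. F9 fell 1.27-fold at ZT13 (-0.34 ± 0.10 log2, adjusted p = 0.0292 in limma), and its mean difference of -0.13 did not pass (adjusted p = 0.0651). The call at ZT13 was lost under 7 of 35 alternatives, among them leaving out replicate 1, 2 or 3 of control (adjusted p = 0.0623, 0.0635 and 0.0888) or replicate 1 or 3 of TSR (0.0552 and 0.0889) at that time. F2, the prothrombin gene, had a lowest, median and highest signal of 5183, 6094 and 6381 over the 12 TSR arrays and of 5139, 5475 and 5735 over the 12 control arrays. The ranges overlapped, through 1 TSR array at ZT1 and 2 at ZT19. F2 rose 1.10-fold in the mean (0.13 ± 0.03, adjusted p = 0.00842), with 0.06 (adjusted p = 0.266) when the arrays were scaled to hepatocyte markers.

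F10, the gene of factor X, had an estimate of -0.00 ± 0.03 log2 in the mean. On the TSR arrays it had 2598, 2586 and 2639 at ZT1, 2821, 2805 and 2753 at ZT7, 2862, 3174 and 3095 at ZT13 and 2520, 2308 and 2643 at ZT19. On the control arrays it had 2759, 2744 and 2817 at ZT1, 2588, 2522 and 2731 at ZT7, 2720, 2720 and 2765 at ZT13 and 2777, 2903 and 2767 at ZT19. TSR arrays were below control at ZT1 and ZT19 and above it at ZT7 and ZT13, without overlap at any time. The estimates were -0.09, 0.10, 0.15 and -0.18 in order of time, none past the threshold alone, while the test of a difference between the times passed (adjusted p = 0.0365 in limma), though not under 17 of 34 alternatives. F7, the gene of factor VII and neighbour of F10 on chromosome 8, had estimates of -0.02 to 0.13 with no call.

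In the mean over time 27% of all tested probe sets passed the threshold in limma. None of the 3 fibrin genes tested passed it in any comparison on the deposited signals of all 24 arrays. Fga, the alpha chain of fibrinogen, had the widest estimate. At ZT13 it had 3953, 3913 and 3314 on the TSR arrays, against 4300, 4306 and 4764 on the control arrays, which did not overlap (-0.26 ± 0.11 log2, adjusted p = 0.112 in limma). A second probe set of Fga with a lower mean signal of 404 gave 0.32 at ZT13 (adjusted p = 0.293) and 0.93 at ZT7 (adjusted p = 0.00991), where the brighter one gave 0.18 (adjusted p = 0.305), so that the 2 probe sets disagree. The brighter one passed at ZT13 with hepatocyte scaling (-0.34, adjusted p = 0.0424) and without replicate 3 of TSR at ZT1 (-0.26, adjusted p = 0.0447), and the mean of both gave 0.03 (adjusted p = 0.902). Fgb, the adjacent beta chain, had estimates of -0.03 to 0.07, and F13b, the carrier subunit of factor XIII, of -0.05 to 0.14.

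Of the 4 anticoagulant genes 3 changed in the mean, where 27% of all probe sets and 35.1% of those above the upper quartile did, and none at a single time. Pros1, which encodes protein S, had a lowest, median and highest signal of 551, 651 and 760 over the TSR arrays, and of 659, 761 and 804 over the control arrays. Of the 12 TSR arrays 7 lay below the control range, and the fall was 1.15-fold (-0.20 ± 0.05 log2, adjusted p = 0.00925 in limma). Proc encodes protein C, the protease for which protein S is the cofactor, and it went the other way, with 1401, 1585 and 1862 in TSR against 1339, 1492 and 1581 in control liver (0.13 ± 0.04, adjusted p = 0.0359). The ranges of Proc overlapped widely, and 14 of 35 alternatives lost the call. Serpind1, heparin cofactor II, had 3109, 3855 and 4181 in TSR against 3820, 4066 and 4366 in control liver (-0.14 ± 0.04, adjusted p = 0.0253). Serpinc1, antithrombin, was 0.05 ± 0.03 in the mean (adjusted p = 0.221).

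In fibrinolysis 2 of the 3 genes, both of them inhibitors, rose at ZT19, where 15.1% of all tested probe sets passed the threshold. Serpinf2, alpha-2-antiplasmin, which blocks plasmin, had 4422, 4501 and 4042 on the TSR arrays, against 3421, 3446 and 3633 on the control arrays. Cpb2, a carboxypeptidase that removes plasminogen binding sites from fibrin, had 3151, 3853 and 3267 on the TSR arrays, against 2788, 2489 and 2847 on the control arrays. The groups did not overlap for either gene. Serpinf2 was 1.23-fold higher (0.30 ± 0.09 log2, adjusted p = 0.0304 in limma) and Cpb2 1.26-fold higher (0.34 ± 0.09, adjusted p = 0.0255). Plg, plasminogen itself, was 0.15 ± 0.07 at ZT19 (adjusted p = 0.132). All 3 control arrays at ZT19 belong to the arrays set apart, so that the comparison at ZT19 could not be run without them. Leaving out replicate 1, 2 or 3 of control at ZT19 lost the calls of Serpinf2 (adjusted p = 0.0914, 0.0926 and 0.062) and of Cpb2 (adjusted p = 0.056, 0.11 and 0.0523).

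The lectin pathway held the largest changes of the complement genes, and they went in opposite directions. Masp1 encodes a protease that circulates bound to the lectins, together with splice products that lack protease activity, which the probe set does not separate. On the TSR arrays Masp1 had 3124, 3084 and 3073 at ZT1, 2549, 2622 and 2588 at ZT7, 2152, 1859 and 2345 at ZT13 and 3102, 3246 and 2412 at ZT19. On the control arrays it had 3038, 3153 and 3498 at ZT1, 3571, 3306 and 3070 at ZT7, 3391, 3255 and 3498 at ZT13 and 3326, 3076 and 3074 at ZT19. Control values stayed between 3038 and 3571, while the TSR arrays were below them without overlap at ZT7 and ZT13 and overlapped them at ZT1 and ZT19.

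Masp1 fell 1.60-fold at ZT13 (-0.68 ± 0.10 log2, adjusted p = 0.00134 in limma), 1.28-fold at ZT7 (-0.36 ± 0.10, adjusted p = 0.0263) and 1.24-fold in the mean (-0.30 ± 0.05, adjusted p = 0.000504). The call at ZT7 was lost under 7 of 35 alternatives, with adjusted p values up to 0.104. Among them were leaving out replicate 1 of control or replicate 1, 2 or 3 of TSR at ZT7. The effect differed between the time points (adjusted p = 0.0208), though without the 5 arrays set apart this had an adjusted p of 0.131. A 24 h curve had an amplitude of 0.29 in TSR, with a peak at 23.9 h (adjusted p = 0.0654), and of 0.05 in control liver (adjusted p = 0.659). The difference between the curves had an adjusted p of 0.0793.

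Mbl1 and Mbl2 encode the mouse mannose-binding lectins, which recognize microbial sugars and carry the Masp proteases. Mbl1 had 1292, 1442 and 1373 at ZT1, 1218, 1167 and 1282 at ZT7, 1056, 1268 and 1212 at ZT13 and 1286, 1239 and 1258 at ZT19 on the TSR arrays. On the control arrays it had 1246, 1301 and 1308 at ZT1, 1286, 978 and 1204 at ZT7, 831, 817 and 927 at ZT13 and 1250, 1244 and 1342 at ZT19. The control arrays at ZT13 were the lowest of all 24, and no TSR array reached down to them. Mbl1 rose 1.37-fold at ZT13 (0.46 ± 0.09 log2, adjusted p = 0.00505 in limma) and 1.11-fold in the mean (0.15 ± 0.05, adjusted p = 0.0204), and its effect differed between the times (adjusted p = 0.0493), a call that 24 of 34 alternatives lost. The mean was not past the threshold after quantile normalization (0.11, adjusted p = 0.109) or with hepatocyte scaling (0.08, adjusted p = 0.194).

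Mbl2 had 2950, 3084 and 3829 on the TSR arrays at ZT13, against 2442, 2352 and 2523 on the control arrays. Over all times its lowest, median and highest signals were 2487, 2867 and 3829 in TSR and 1951, 2479 and 2719 in control liver. It rose 1.34-fold at ZT13 (0.42 ± 0.13 log2, adjusted p = 0.0318 in limma) and 1.21-fold in the mean (0.28 ± 0.06, adjusted p = 0.0047). The call at ZT13 was lost under 8 of 35 alternatives, among them leaving out replicate 1, 2 or 3 of control (adjusted p = 0.078, 0.0829 and 0.0652) or replicate 3 of TSR (0.31, adjusted p = 0.128), while the mean kept its call under all 35. Masp2, the protease that cleaves C4 and C2, changed at another time than Masp1. It had 3261, 3424 and 2824 on the TSR arrays at ZT19, against 2498, 2386 and 2615 on the control arrays, a rise of 1.26-fold (0.34 ± 0.10, adjusted p = 0.0362), and -0.19 at ZT13 (adjusted p = 0.19). The call of Masp2 at ZT19 was lost without replicate 1, 2 or 3 of control (adjusted p = 0.0883, 0.117 and 0.0674), which are arrays set apart, without replicate 1 or 2 of TSR (0.0954 and 0.104) and with hepatocyte scaling (0.0808).

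**Figure D3:**
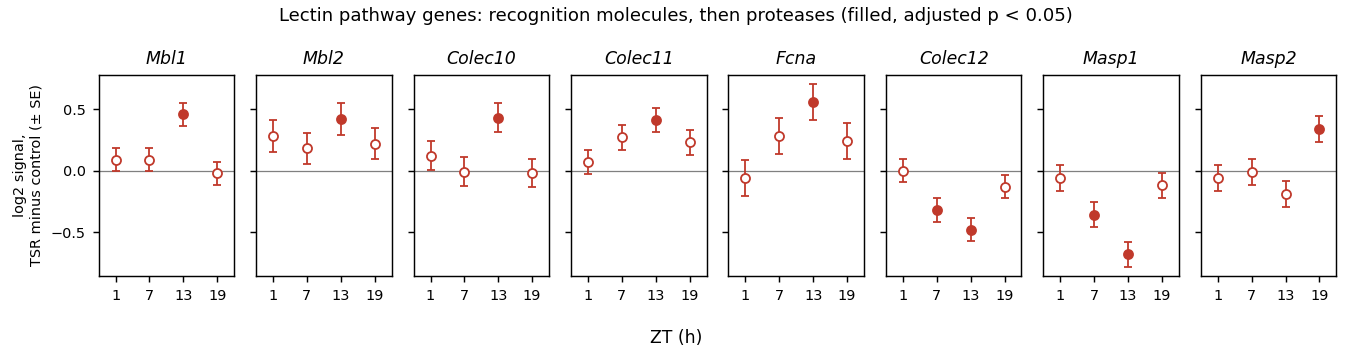
Difference in log2 signal between TSR and control liver (± SE from limma, 3 arrays per group) against ZT. Shown are lectins (Mbl1, Mbl2, Colec10, Colec11, Fcna and the membrane-bound Colec12) and proteases of the lectin pathway (Masp1 and Masp2). Filled points have an adjusted p under 0.05. At ZT13 Colec12 is at -0.48 and the other lectins are at 0.41 to 0.56, and Masp1 is at -0.68.

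The list of other complement genes gave further lectins at ZT13. Colec10 (0.43 ± 0.12 log2, adjusted p = 0.0192 in limma) and Colec11 (0.41 ± 0.10, adjusted p = 0.012), both collectins, and Fcna, ficolin-A (0.56 ± 0.15, adjusted p = 0.0165), rose, while Colec12, a membrane-bound collectin, fell (-0.48 ± 0.09, adjusted p = 0.00421). Among all tested probe sets 8.62% rose and 9.22% fell at ZT13. Setting these genes beside Mbl1 and Mbl2 was a choice made after their values were seen. Kupffer cell markers (8 tested) had a median of 0.23 at ZT13 with no call, and sinusoidal endothelial markers (8 tested) a median of 0.23 with 2 rises. The part of other cells in these genes was not tested.

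In the later steps of complement, none of the 4 convertase genes (C2, C3, C4b and Cfb) passed the threshold in any TSR comparison. Of all tested probe sets 27% passed in the mean and 2.71% to 17.8% at single times. With only 4 genes, a count of none says little beside these shares. C3, the centre of the cascade, had the narrowest replicate spread of all 35 genes (SD 0.04 log2) and estimates of 0.01 to 0.05. C2 had the widest estimate of the 4, with 694, 809 and 698 on the TSR arrays at ZT13, against 765, 757 and 904 on the control arrays, which overlapped (-0.14 ± 0.10, adjusted p = 0.325 in limma). C4b had estimates of -0.04 to 0.01, and is uncertain because its probes may share sequence with the near-identical copy C4a, which had 0.28 at ZT13 (adjusted p = 0.198).

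Of the 6 genes of the membrane attack complex, Hc and C8a fell in the mean. These 2 of 6 are near the 27% of all probe sets that passed and the 35.1% above the upper quartile of signal. Hc encodes C5, the first component of the complex and the source of the inflammatory peptide C5a. It had 5134, 4522 and 4481 on the TSR arrays at ZT13, against 5553, 5985 and 5783 on the control arrays, which did not overlap. The fall was 1.23-fold at ZT13 (-0.30 ± 0.10 log2, adjusted p = 0.0435 in limma) and 1.14-fold in the mean (-0.18 ± 0.05, adjusted p = 0.0104). The call at ZT13 was lost under 17 of 35 alternatives, with adjusted p values up to 0.144.

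C8a, the alpha chain of C8, had a lowest, median and highest signal of 3486, 3951 and 4925 over the TSR arrays and of 4117, 4353 and 5040 over the control arrays (-0.15 ± 0.05 log2, adjusted p = 0.0325 in limma). The call was lost under 13 of 35 alternatives, among them leaving out the 5 arrays set apart (-0.14, adjusted p = 0.107). Its neighbour C8b on chromosome 4 had 0.03 ± 0.04 in the mean and C8g, the third chain, 0.10 ± 0.04 (adjusted p = 0.0961), neither past the threshold. C6 had -0.14 ± 0.06 (adjusted p = 0.0612) and C9 0.01 ± 0.04. The inhibitors C4bp and Cfi gave no call on the deposited signals of all 24 arrays. For so few genes this says little beside the 27% of all probe sets that passed in the mean. At ZT13 C4bp had 2486, 2569 and 2347 on the TSR arrays, against 2757, 2985 and 2988 on the control arrays, without overlap (-0.24 ± 0.09, adjusted p = 0.0752). C4bp passed with hepatocyte scaling (-0.32, adjusted p = 0.041) and without replicate 2 of TSR at ZT19 (-0.24, adjusted p = 0.0442).

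Diurnal rhythms were tested as a curve of 24 h. In TSR liver no gene passed the threshold in limma (2.47% of all probe sets did), with 5 genes at an unadjusted p under 0.05 (21.3% of all probe sets), while array weights gave 2 genes. In control liver 3 of 35 genes were rhythmic, against 12.6% of all probe sets. They were F11 with an amplitude of 0.27 log2 and a peak at 6.1 h (adjusted p = 0.0239), Serpinf2 with 0.24 and 5.8 h (adjusted p = 0.0186) and Mbl1 with 0.30 and 0.0 h (adjusted p = 0.0261). The same genes had amplitudes of 0.20, 0.13 and 0.11 in TSR (adjusted p = 0.352, 0.358 and 0.347). A difference in rhythm between the treatments was tested directly and passed for none of the 35 genes (0.367% of all probe sets), with 4 at an unadjusted p under 0.05 (16.3% of all probe sets). Array weights gave 5 calls for this difference. The shares of all probe sets under array weights are not given, so that the counts with array weights cannot be set against a background. The median amplitude was 0.09 in TSR and 0.05 in control liver, where that of all tested probe sets was 0.14 in TSR and 0.13 in control liver.

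F11 had 666, 596 and 728 at ZT1, 621, 792 and 829 at ZT7, 466, 511 and 558 at ZT13 and 711, 727 and 583 at ZT19 on the TSR arrays. On the control arrays it had 718, 678 and 651 at ZT1, 863, 867 and 703 at ZT7, 732, 557 and 599 at ZT13 and 601, 551 and 534 at ZT19. The trough was thus at ZT19 in control liver and at ZT13 in TSR liver, though the groups overlapped at all times and the difference between the curves did not pass (adjusted p = 0.454 in limma). Serpinf2 had 4734, 4697 and 4276 at ZT1, 4839, 5373 and 5246 at ZT7 and 5119, 4894 and 3937 at ZT13 on the TSR arrays. On the control arrays it had 4992, 4675 and 4787 at ZT1, 4939, 4982 and 4545 at ZT7 and 4657, 4128 and 4312 at ZT13. With the values at ZT19 given above, the control arrays were lowest at ZT19. The rhythm of Serpinf2 in control liver lost its call without the arrays set apart (0.14, adjusted p = 0.26). That of F11 was lost under 6 of 34 alternatives, among them leaving out the arrays set apart (adjusted p values in limma up to 0.081). That of Mbl1 was lost under 5 of 34, among them leaving out replicate 1, 2 or 3 of control at ZT13 (up to 0.0723).

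Coagulation was then compared with complement, as a description with no test. The median change of the coagulation genes was 0.04 in the mean, and -0.01, 0.08, -0.03 and 0.04 at ZT1, ZT7, ZT13 and ZT19. That of the complement genes was -0.00 in the mean, and 0.01, 0.02, -0.02 and -0.03 at the same times, where all tested probe sets had medians of 0.01 to 0.02. The class medians of each array differed between the classes by 0.02 to 0.05 log2 more in TSR than in control liver, depending on the time, with a replicate SD of 0.06. Of the coagulation genes 11 of 19 had an estimate above 0 in the mean, and of the complement genes 8 of 16, where 54.4% of all tested probe sets did. Measured on the class medians of each array, the difference between the classes was smaller than the replicate SD at each time. That SD is the spread of single arrays and not the error of a difference of means.

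**Figure D4:**
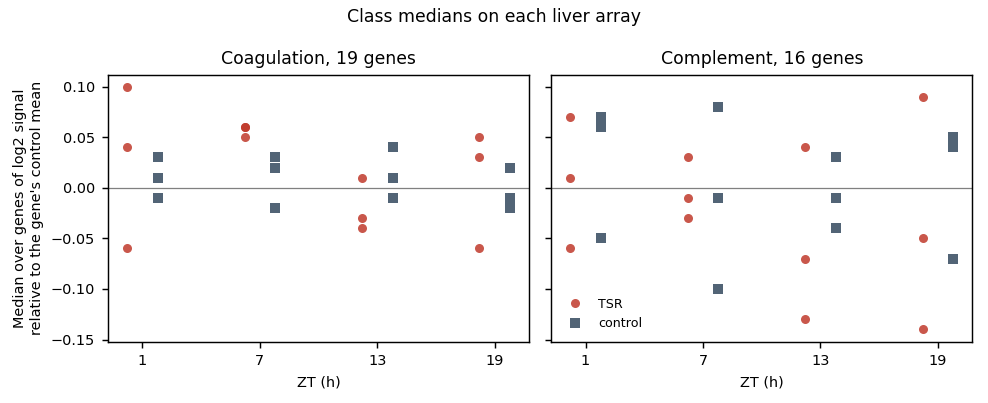
Median over 19 coagulation genes (left) and 16 complement genes (right) of the log2 signal relative to the mean of each gene in control liver, against ZT, with a point per array. TSR (red circles) and control (dark squares) lie within 0.14 of 0 in both classes, and the groups overlap except for coagulation at ZT7, where TSR is at 0.05 to 0.06.

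The genes varied little between replicates. The pooled replicate SD was 0.10 log2 in the median over the 35 genes, between 0.04 for C3 and 0.16 for Mbl2, and 0.16 in the median over all tested probe sets. The 5 pairs of neighbouring genes did not always share a sign. F11 and Klkb1 had opposite signs at ZT19 (0.26 and -0.29), C8b and C8a at ZT7 (0.11 and -0.22) and Fga and Fgb at ZT13 (-0.26 and 0.07), while F7 and F10 had the same sign at ZT7, ZT13 and ZT19 and Cfb and C2 were between -0.14 and 0.11.

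Of 21 other coagulation genes tested, 3 rose and 3 fell in the mean, a share close to the 27% of all probe sets. Mcfd2 and Lman1 form the receptor that carries factor V and factor VIII out of the endoplasmic reticulum. Mcfd2 rose in the mean (0.22 ± 0.04 log2, adjusted p = 0.00122 in limma) and at ZT13 (0.28 ± 0.08, adjusted p = 0.028). Lman1 fell at ZT13 (-0.32 ± 0.09, adjusted p = 0.0261) and did not pass in the mean (-0.11 ± 0.05, adjusted p = 0.0819). Of the enzymes of vitamin K dependent carboxylation, which F2, F7, F9, F10, Proc and Pros1 need, Vkorc1 rose (0.14 ± 0.04, adjusted p = 0.0118) and Ggcx fell (-0.21 ± 0.07, adjusted p = 0.0276). Proz, protein Z, fell at ZT13 (-0.50 ± 0.10, adjusted p = 0.00456), as did Hrg, histidine-rich glycoprotein (-0.37 ± 0.10, adjusted p = 0.0164).

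Of 23 other complement genes tested, 3 rose and 2 fell in the mean (27% of all probe sets passed) and 4 rose at ZT19 (15.1% passed), shares near those of all probe sets. Those at ZT19 were Cfp, properdin (0.58 ± 0.13 log2, adjusted p = 0.0119 in limma), C1qc (0.63 ± 0.16, adjusted p = 0.0168), C1qb (0.98 ± 0.25, adjusted p = 0.0172) and C1rl (0.57 ± 0.18, adjusted p = 0.0383). C1q and properdin are made largely by macrophages, and Kupffer cell markers had a median of 0.08 at ZT19 with no call, a summed signal of 2150 to 2940 over all TSR arrays and of 1975 to 3270 over all control arrays. At ZT19 sinusoidal endothelial markers had a median of 0.25 with 3 of 8 rising, and stellate cell and fibroblast markers a median of 0.29 with 2 of 8 rising. All 3 control arrays of that time are among those set apart, and the part of these cells and arrays in the calls was not tested. Cd59a, a membrane inhibitor of the attack complex, fell at ZT13 (-1.03 ± 0.21, adjusted p = 0.00472). Of 19 acute phase genes, plasma proteins that change in inflammation, 2 rose and 1 fell in the mean, where 27% of all probe sets passed, among them Hpx (0.19 ± 0.04, adjusted p = 0.00458) and Crp (-0.18 ± 0.05, adjusted p = 0.00987), and Apcs rose at ZT19 (1.20 ± 0.32, adjusted p = 0.0206).

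Among regulators of hepatocyte genes, Nr5a2, a nuclear receptor (-0.37 ± 0.10 log2, adjusted p = 0.0241 in limma), and Il6ra, a chain of the interleukin-6 receptor (-0.79 ± 0.27, adjusted p = 0.0491), fell at ZT13. Cebpb rose at ZT7 (0.68 ± 0.21, adjusted p = 0.0357) and at ZT19 (0.73 ± 0.21, adjusted p = 0.0272). Nr1h4, the bile acid receptor FXR, rose at ZT1 (0.61 ± 0.09, adjusted p = 0.00208) and fell at ZT7 (-0.45 ± 0.09, adjusted p = 0.00591), with 0.08 in the mean (adjusted p = 0.184). Of the forkhead factors Foxa3 rose at ZT1 (0.67 ± 0.17, adjusted p = 0.0433) and Foxa2 at ZT7 (0.55 ± 0.18, adjusted p = 0.0454). These are levels of mRNA, and the activity of the factors was not measured.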

How the data were processed

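Total RNA from 24 livers had been hybridized to Affymetrix Mouse Gene 1.0 ST arrays. The authors normalized and modelled the probe sets in d-Chip and deposited linear intensity values, 1 signal per probe set and array. No d-Chip version is stated in the labels or methods, nor whether both tissues were normalized jointly. The deposited detection p-value and call columns were not used, and array number limits the precision. Signals (floor 1) were log2 transformed, and those that carried 1 symbol and whose mean over the liver arrays exceeded the median of all (97.37), 12802 in number, were tested with limma 3.58.1 in R 4.3.3, in a model of 8 group means, with Benjamini-Hochberg adjustment over all of them and a threshold of 0.05. Rhythms were moderated F-tests of a cosine and sine of 24 h, and the difference between time points was an F-test of treatment by time. The median signal per array was 88.96 to 108.83 in TSR and 84.54 to 100.87 in control liver. The smallest mean difference between any 2 liver arrays was 0.106 log2, so that no array was a copy. The labels give mice as replicates.

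The members and lists were chosen with earlier results of these data known. Values of every array are given for genes past the threshold (at most 4 per role), for rhythmic genes and, in a role with none, for the gene with the widest change. Alternatives were no filter, a stricter filter, a pseudocount of 16, quantile normalization, scaling to hepatocyte markers, array weights, a replicate block, the mean over all probe sets, the series value table, the methods' t-test and leaving out arrays. The tests were checked on simulated data with known changes placed in probe sets drawn from all tested ones. Only 66 or 67 of the 12802 probe sets were changed at each size, whereas 27% of them passed in the mean in the real data. The recovered shares hold for that setting. They do not give the share for the 35 genes, whose median replicate spread was smaller (0.10 against 0.16 log2). Of changes of 0.3 log2, 70.1% were recovered in the mean, 10.4% at ZT13 and 0% in the difference between times. Of changes of 0.5 log2, 86.6%, 56.7% and 23.9% were recovered. For the difference in rhythm 25.4% of amplitudes of 0.3 and 71.6% of 0.5 were recovered. A missing call thus does not show that a gene did not change. Sequences came from RefSeq (GRCm38.p6). Figures were drawn with matplotlib 3.10.9. Some regulator genes are not reported here.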

Additional observations from a re-analysis of the deposited data

Results flagged for a closer look

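The effect of TSR differed between time points, by limma's moderated F-test, for F10 (adjusted p = 0.0365), Mbl1 (adjusted p = 0.0493) and Masp1 (adjusted p = 0.0208). F10 had differences of -0.09, 0.10, 0.15 and -0.18 log2 at ZT1, ZT7, ZT13 and ZT19, Mbl1 of 0.09, 0.09, 0.46 and -0.02, and Masp1 of -0.06, -0.36, -0.68 and -0.12. Over the alternatives the adjusted p ranged between 0.00356 and 0.317 for F10, between 0.0212 and 0.293 for Mbl1 and between 0.000596 and 0.131 for Masp1, so that 17 of 34 alternatives lost F10, 24 of 34 Mbl1 and 1 of 34 Masp1.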

How the results depend on the processing

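The mean calls of F5, F12, Pros1, Hc, Mbl2 and Masp1 held under all 35 alternatives. F12 at ZT19 held under all 34, which could not include leaving out the arrays set apart. F5, Mbl1 and Masp1 at ZT13 were lost only under the methods' t-test (adjusted p = 0.0694, 0.129 and 0.102). Without a filter 7 genes were called in the mean, 0 at ZT7, 3 at ZT13, 2 at ZT19, 1 for a difference between times and 0 for a control rhythm. Above the upper quartile of signal 5 differed between times and 1 was rhythmic in TSR. Array weights called 1 gene at ZT1, 5 at ZT7, 12 at ZT19, 11 between times, 6 control and 2 TSR rhythms and 5 differences in rhythm. The methods' t-test called 0 at ZT7, 0 at ZT13 and 2 at ZT19. Quantile normalization gave 5 between times, and hepatocyte scaling gave 2 at ZT19 and 1 between times. Without the 5 arrays set apart there were 0 at ZT7, 0 between times and 1 control rhythm. The shares of all probe sets under the alternatives are not given, so that these counts cannot be set against a background. Fga at ZT13 turned to 0.03 (adjusted p = 0.902) as a mean over all its probe sets. The cause was not tested.

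Leaving out 1 array at a time gave 9 to 13 calls in the mean, 0 to 0 at ZT1, 0 to 5 at ZT7, 3 to 9 at ZT13, 1 to 5 at ZT19, 1 to 6 between times, 0 to 5 control rhythms, 0 to 2 TSR rhythms and 0 to 2 differences in rhythm. The count at ZT7 was 0 without any 1 TSR array of ZT7 or replicate 1 of control and 1 without replicate 3 of control, and 5 without replicate 3 of TSR at ZT13, and that at ZT13 was 3 without any 1 control array of ZT13 or replicate 3 of TSR. At ZT19 it was 2, 1 and 2 without control replicate 1, 2 or 3 and 3 without TSR replicate 1 or 2. Between times 14 single arrays moved the count by over 1.5 times, up to 6 without replicate 3 of TSR at ZT19, which also gave 2 TSR rhythms and 2 differences in rhythm. Replicate 3 of TSR at ZT13 gave 1 difference in rhythm, and control rhythms were 5 without replicate 3 at ZT7 and 0 and 1 without replicates 2 and 3 at ZT19. The class difference was 0.02 to 0.05 in the mean, 0.00 to 0.08 at ZT1, 0.00 to 0.09 at ZT7, -0.01 to 0.05 at ZT13 and 0.02 to 0.10 at ZT19.

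With the replicate number as a block 11 genes were called in the mean and 3, 6 and 5 at ZT7, ZT13 and ZT19. Of 12 pairs of a TSR and a control array of the same number and time, 4 correlated above 0.1 (-0.19 to 0.31). Pairs of different numbers correlated between -0.39 and 0.43. With 3 arrays per group these values cannot show whether arrays of the same number share anything.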

Other observations

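On the 24 arrays labelled WAT the median signal of the 35 genes was 2461 to 2857 on 17 arrays and 26.1 to 90.2 on 7, with none between, against 2997 to 3558 on the liver arrays. The 7 were replicate 1 of TSR at ZT1, replicate 2 of TSR at ZT13, replicate 3 of TSR at ZT19, replicate 3 of control at ZT7 and all 3 replicates of control at ZT19. F2 had a lowest, median and highest signal of 26.2, 4500 and 5540 there, and a lowest of 5140 in liver.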
